A study of Rattus norvegicus with 12 samples.

Results

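Mitochondrial proteins that are encoded in the nucleus were followed in rat fibroblasts with and without c-myc, before and after inhibition of mTOR by rapamycin. The probes were chosen by name from the authors' tables of probes changed by rapamycin in TGR-1 or HO15.19 cells: those whose description names a mitochondrion, those whose symbol marks a subunit of complex I, II, III or IV, the ATP synthase or the import machinery, and Bckdha. Probes whose symbol begins with Slc, Mrps or Mrpl, probes described as a tRNA synthetase or by the word translation, and 3 single genes were left out. This gave 43 probes among 1734 named probes, of 22523 on the array. Of these, 25 stood in the TGR-1 table, 33 in the HO15.19 table and 15 in both. No probe for a complex II subunit was among them. The exclusion went by these letters and words alone, so Gfm1 (a translation elongation factor), Dap3 (a mitochondrial ribosomal protein) and RGD1561141 (listed as similar to a carrier) stayed in. Some others of the 43 stretch the description: Emc8 was kept because its older symbol Cox4nb begins like a cytochrome oxidase gene although it encodes a subunit of an endoplasmic reticulum membrane complex, Acaa1a is known as a thiolase of peroxisomes, and mrpl24, a mitochondrial ribosomal protein, was kept because its symbol is written in lower case.

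TGR-1 (c-Myc+/+) is a subclone of the Rat-1 embryonic fibroblast line, and HO15.19 (c-Myc-/-) was made from TGR-1 by gene targeting of c-myc. Cells of each line received DMSO vehicle or 50 nM rapamycin for 24 hr, and total RNA from 3 replicates of each of the 4 groups was hybridised to Illumina RatRef-12 arrays, 12 in all. The study asked whether changes in gene expression after rapamycin depend on c-Myc. The labels give doubling times of 18 to 21.5 hr (TGR-1) and 45 to 60 hr (HO15.19), and each genotype is represented by a single cell line, so loss of c-myc, clonal differences and growth rate cannot be told apart.

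Nearly all proteins of the mitochondrion are made from nuclear genes and imported through the TOM and TIM translocases. The respiratory chain and the ATP synthase combine nuclear subunits with subunits made inside the organelle, where Polrmt transcribes and Tfam packages the mitochondrial genome. c-Myc, which binds the E-box, and mTORC1, the rapamycin-sensitive kinase complex, are both known to promote the production of mitochondrial proteins, and c-Myc null rat fibroblasts are known for slow growth.

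Promoter sequence from RefSeq (GRCr8), running from 250 bases before to 50 bases after each gene start, was available for 33 of the 43 genes, in 35 distinct windows. The E-box CACGTG, which reads the same on both strands, lay in 6 of the 35 windows (17.1%), against 6.42% of all 33469 windows in the table. The NRF1 core GCGCATGC, searched on both strands, lay in 2 of 35 (5.71%, against 2.47% of all). NRF1 is a factor known for binding promoters of respiratory chain genes. Both sets are shown, 30 bases each, because c-Myc is the factor that the lines differ in and NRF1 sites are the classical mark of this gene class. Capitals mark the motif.
Atp5mc1 (E-box, chr10:81523402-81523431, minus strand): agggaccccgaaCACGTGggtgggggagct
Bnip3 (E-box, chr1:203155044-203155073, minus strand): gcgcacgcgccgCACGTGccacacgcgccc
mrpl24 (E-box, chr2:175681066-175681095, plus strand): gcgtagatagcgCACGTGgaaagaaagttg
Ndufa7 (E-box, chr7:15311319-15311348, plus strand): gcggagaggagtCACGTGagcaggggatgc
Surf1 (E-box, chr3:30642739-30642768, minus strand): cgccacagccacCACGTGaggcggagcgcg
Timm10 (E-box, chr3:90315114-90315143, plus strand): ccggaagtgaccCACGTGcttcttatttcg
Aifm1 (NRF1 core, chrX:132567284-132567313, minus strand): ggcagctggacGCATGCGCcaacctcctcg
Uqcrc1 (NRF1 core, chr8:118468173-118468202, plus strand): tactccaccctGCGCATGCgtagcgcggct

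The E-box began 13 bases before the gene start in Timm10, 46 in Surf1, 74 in Atp5mc1, 99 in Bnip3 and 115 in Ndufa7, and at base 4 after the start in mrpl24. The ETS motif CCGGAAGT lay in 5 windows (14.3%, against 3.81% of all), those of Fis1, Surf1, Tfam, Timm10 and Tomm70, and the YY1 motif AAGATGGC in 3 (8.57%, against 3.17% of all). The ERR motif TCAAGGTCA lay in none of the 35 and in 0.433% of all windows. No 2 matches in these windows overlapped. A match of letters is a description of the sequence, not a binding site.

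Between 9605 and 10472 probes were detected per array (detection p under 0.05), mean raw signal ran from 254.8 to 405.4, and arrays within a group correlated at 0.989 or above. Signals were background corrected, quantile normalized and put on the log2 scale, and levels below are these normalized log2 signals, comparable between arrays for a probe but not between probes. To be called, a gene had to pass 3 conditions: limma's p adjusted by Benjamini-Hochberg over the 10852 probes tested below 0.05, an unadjusted p not above 0.01, and a fold of 1.2 or more. The Myc probe read 9.02 ± 0.05 (SD, n = 3) in TGR-1 with DMSO and 7.83 ± 0.13 in HO15.19 with DMSO, and was detected on all 12 arrays; its place relative to the disrupted part of the gene was not stated, so it does not test the deletion. Of 14 fibroblast markers 4 were among the named probes, and Col1a1, Col3a1 and Fn1 were detected on every array while Lum was detected on the HO15.19 arrays alone. Of the markers fixed for epithelial, endothelial, blood and muscle cells only Cd14 was named; it was detected on every array, with group means of 7.08 to 7.74, and its part in the results was not tested.

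Over the 43 probes, more changes with rapamycin were negative than positive in both lines. The median change was -0.18 on the log2 scale in TGR-1 and -0.31 in HO15.19, beside -0.0025 and -0.0045 over all probes tested, and the change was negative for 33 of 43 probes in TGR-1 and for 31 in HO15.19. All 43 passed the filter on dim probes. In TGR-1, 8 were called, against 3.96% of all probes tested, 2 higher (against 2.52%) and 6 lower (against 1.45%). In HO15.19, 10 were called, against 5.14% of all, 2 higher (against 2.51%) and 8 lower (against 2.64%). The tables that supplied the names were drawn up from these rapamycin comparisons, so these counts describe how the probes were chosen. The same holds below for the p-value and call of a single gene in a line whose table lists it. The size of the change in the line that lists a gene ran from 0.28 (Timm17b) to 0.87 (Bnip3) log2 units in TGR-1 and from 0.27 (Uqcrb) to 1.56 (LOC684490) in HO15.19; probes outside the tables are not named here, so no gene just outside them can be given. A smaller share of cells expressing a gene and less of its RNA per cell cannot be told apart in such bulk samples.

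The arrays of one line had no part in the table of the other, and the lines share no control arrays, so each list can be read in the line that did not supply it. Of the 33 members listed for HO15.19, 28 had a negative value in TGR-1 and 32 had the same sign in both lines, with a median of -0.18 in TGR-1. Other named probes listed for HO15.19 had a negative value in TGR-1 in 44.3% of cases, the same sign in both lines in 82.0% and a median of 0.050. In HO15.19 itself 27 of these 33 members were negative, beside 50.8% of the other probes of that list. Their direction in TGR-1 thus largely followed that of the list. Of the 25 members listed for TGR-1, 14 were negative in HO15.19 and 22 had the same sign in both lines, with a median of -0.13. The other probes of that list were negative there in 47.4% of cases, had the same sign in 86.1% and a median of 0.024. Without HO15.19 rapamycin replicate 2 the median of the 25 members was -0.040. In TGR-1 itself 15 of the 25 were negative, beside 46.7% of the other probes of that list. By calls, 6 of the 33 members listed for HO15.19 passed in TGR-1 (18.2%; 5 lower and 1 higher), close to the 17.8% of the other probes of that list. In the reverse direction 5 of 25 passed in HO15.19 (3 lower and 2 higher), beside 21.2% of the others. The share that passed was therefore like that of other listed probes. With the spread taken from each line's own arrays, 8 of the 33 passed in TGR-1 and 3 of the 25 in HO15.19. For the HO15.19 list the balance of directions differed from theirs (84.8% of members negative in TGR-1, against 44.3%). For the TGR-1 list it differed little (56.0% negative in HO15.19, against 47.4%). Neither balance was tested, and each was already present in the line that supplied the list.

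**Figure D1:**
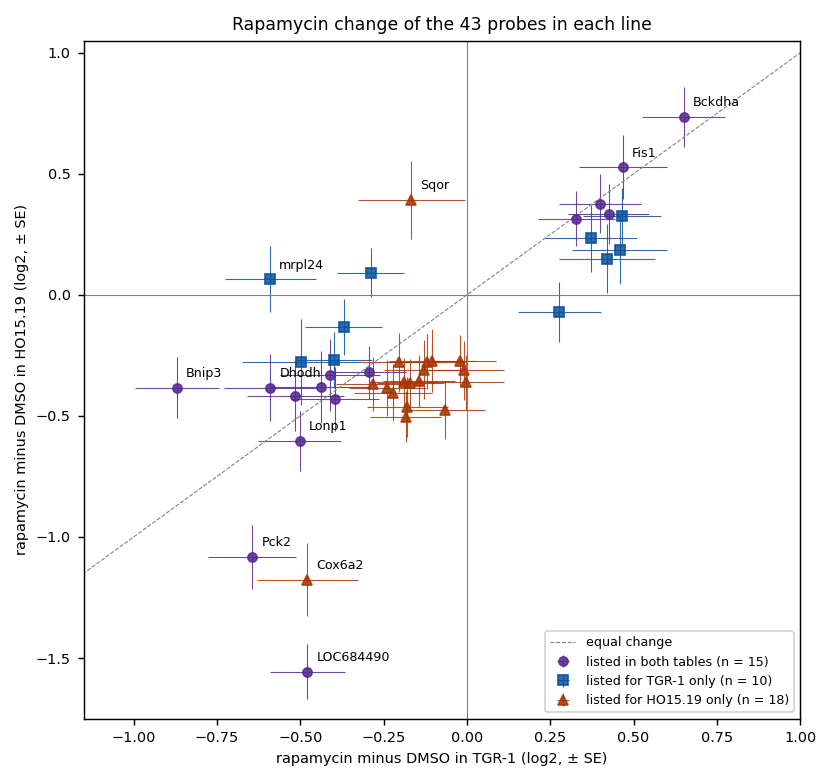
Rapamycin minus DMSO in TGR-1 (x axis) against rapamycin minus DMSO in HO15.19 (y axis), both in log2 units with the SE of the limma fit, for the 43 probes, with marker shape by the table that lists the gene. Points lie mostly in the lower left, LOC684490, Cox6a2 and Pck2 lie farthest below the line of equal change, and Bckdha and Fis1 lead the upper right.

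The 4 genes called in both lines were Bckdha, Pck2, Lonp1 and LOC684490, and each moved the same way in both. Bckdha, Pck2 and Lonp1 stood in both tables, so their rapamycin p-values come from the comparisons that chose them and are a description. Bckdha encodes the E1 alpha subunit of the branched-chain ketoacid dehydrogenase, the committed step in the breakdown of leucine, isoleucine and valine. Its level in TGR-1 was 5.95, 5.79 and 6.16 with DMSO and 6.57, 6.50 and 6.79 with rapamycin. In HO15.19 it was 6.58, 6.55 and 6.39 with DMSO and 7.27, 7.11 and 7.34 with rapamycin. All rapamycin arrays stood above all DMSO arrays of their line, and the treated TGR-1 arrays reached the level of the untreated HO15.19 arrays. The rise was 0.65 ± 0.12 (SE) in TGR-1 (1.57-fold, adjusted p = 0.00644, limma) and 0.73 ± 0.12 in HO15.19 (1.66-fold, adjusted p = 0.00206, limma), and over both treatments HO15.19 stood 0.58 ± 0.09 above TGR-1 (adjusted p = 3.31e-05, limma). This probe is dim, and on the authors' normalized values the rises were 0.34 and 0.46 and the line difference was 0.34, all still called.

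Pck2, the mitochondrial phosphoenolpyruvate carboxykinase, went the other way. Its level in TGR-1 was 7.96, 8.07 and 8.16 with DMSO and 7.29, 7.48 and 7.50 with rapamycin. In HO15.19 it was 7.16, 7.30 and 6.75 with DMSO and 5.96, 5.98 and 6.02 with rapamycin. The groups did not overlap within either line, and the treated HO15.19 arrays were the lowest of all 12. The fall was 0.64 ± 0.13 in TGR-1 (1.56-fold, adjusted p = 0.00994, limma) and 1.08 ± 0.13 in HO15.19 (2.12-fold, adjusted p = 0.000126, limma). Without TGR-1 rapamycin replicate 1 the TGR-1 call was lost (adjusted p = 0.0585, limma), and on the authors' normalized values the fall in HO15.19 was smaller (-0.62) and still called. Over both treatments HO15.19 stood 1.21 ± 0.09 below TGR-1 (2.32-fold, adjusted p = 1.37e-08, limma), and by 0.79 on the authors' normalized values, still called.

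The other amino acid enzymes did not pass in either line. Got2, the mitochondrial aspartate aminotransferase, had changes of -0.44 ± 0.15 in TGR-1 and -0.38 ± 0.15 in HO15.19 (adjusted p = 0.122 and 0.168, limma) and was lower in HO15.19 than in TGR-1 by 0.57 ± 0.11 (adjusted p = 0.000259, limma). Gls2, a glutaminase that releases glutamate from glutamine, had a change of 0.37 ± 0.14 in TGR-1, whose table lists it, and of 0.23 ± 0.14 in HO15.19 (adjusted p = 0.405, limma). Of these 4 genes, Bckdha and Gls2 had positive and Pck2 and Got2 negative values in both lines.

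LOC684490 is listed as similar to a bifunctional methylenetetrahydrofolate dehydrogenase/cyclohydrolase, mitochondrial precursor, an enzyme type of one-carbon metabolism, and has no current gene name in the tables used here. Its level in TGR-1 was 9.63, 9.67 and 9.70 with DMSO and 9.15, 9.21 and 9.21 with rapamycin. In HO15.19 it was 8.94, 9.27 and 9.0 with DMSO and 7.47, 7.44 and 7.63 with rapamycin. The 3 treated HO15.19 arrays stood more than 1 log2 unit below all other arrays. The fall was 0.48 ± 0.11 in TGR-1 (adjusted p = 0.0224, limma) and 1.56 ± 0.11 in HO15.19 (2.94-fold, adjusted p = 7.69e-07, limma). The TGR-1 call was lost when any 1 of the 6 TGR-1 arrays was left out (adjusted p up to 0.0826, limma). The difference between the 2 changes was -1.08 ± 0.16 (adjusted p = 0.0130, limma), and LOC684490 was the sole member called for this difference, against 0.111% of all probes tested; the difference is made of the comparisons that chose the probes and is not independent of that choice. That call was lost without TGR-1 control replicate 1 or TGR-1 rapamycin replicate 2 or 3 (adjusted p up to 0.0652, limma) and under median centring (adjusted p = 0.0868, limma).

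Lonp1 encodes the matrix protease that degrades damaged proteins and Tfam. Its level in TGR-1 was 9.43, 9.46 and 9.45 with DMSO and 8.93, 8.94 and 8.97 with rapamycin. In HO15.19 it was 8.82, 8.99 and 9.23 with DMSO and 8.45, 8.20 and 8.57 with rapamycin. Groups did not overlap in either line, and the HO15.19 arrays scattered more than the TGR-1 arrays (SD 0.20 and 0.19 against 0.02 and 0.02). The fall was 0.50 ± 0.12 in TGR-1 (adjusted p = 0.0309, limma) and 0.60 ± 0.12 in HO15.19 (adjusted p = 0.00808, limma). The TGR-1 call was lost without any 1 TGR-1 array (adjusted p up to 0.0992, limma), and the HO15.19 call was lost when the spread was taken from that line alone. Hspd1, the matrix chaperonin, had a change of -0.24 ± 0.11 in TGR-1 (adjusted p = 0.291, limma) and of -0.38 ± 0.11 in HO15.19, whose table lists it.

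**Figure D2:**
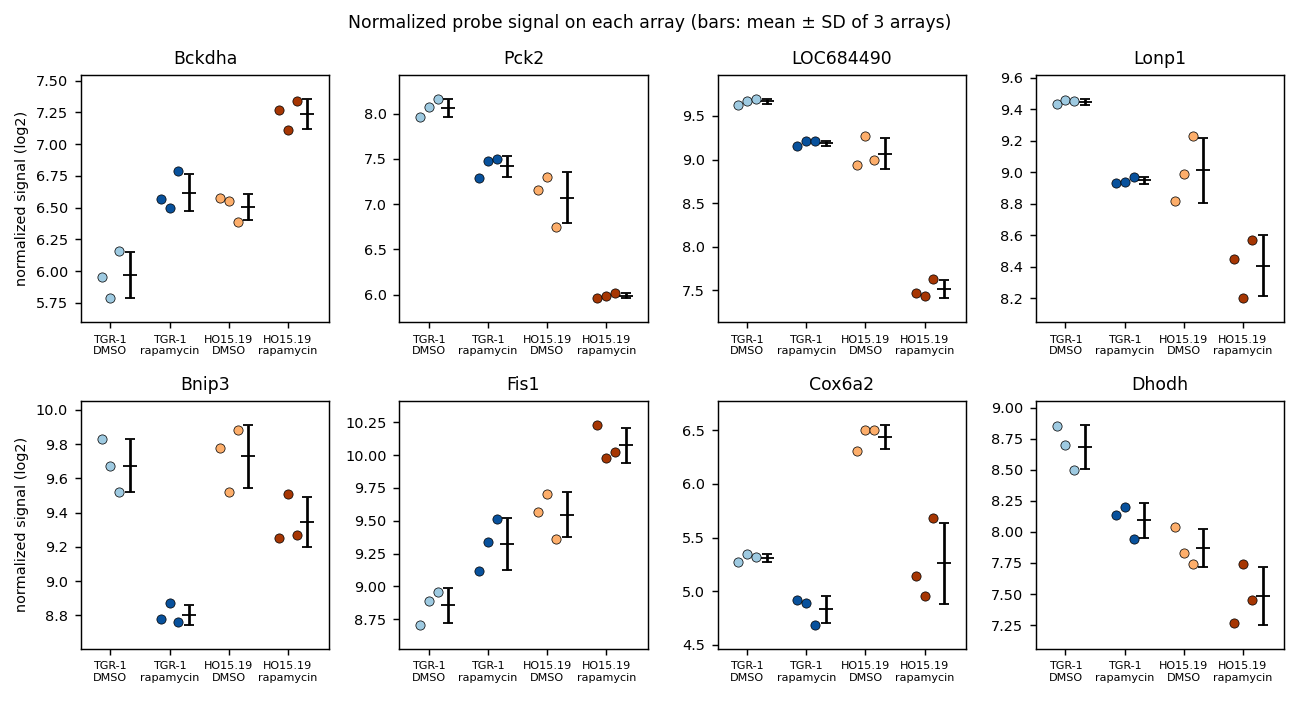
Normalized log2 signal (y axis) on each of the 12 arrays for 8 genes, by line and treatment; points are arrays and bars the mean ± SD of 3 arrays. In both lines the rapamycin arrays lie above the DMSO arrays for Bckdha and Fis1 and below them for Pck2, LOC684490, Lonp1, Bnip3, Cox6a2 and Dhodh, and Cox6a2 is highest in HO15.19 with DMSO.

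Among genes of organelle shape and turnover, Bnip3 and Fis1 were called in opposite directions. Bnip3 encodes an outer membrane receptor for mitophagy, the removal of mitochondria by autophagy. Its level in TGR-1 was 9.83, 9.67 and 9.52 with DMSO and 8.78, 8.87 and 8.76 with rapamycin. In HO15.19 it was 9.78, 9.52 and 9.88 with DMSO and 9.25, 9.51 and 9.27 with rapamycin, so that the groups stood apart widely in TGR-1 and narrowly in HO15.19. The fall was 0.87 ± 0.13 in TGR-1 (1.83-fold, adjusted p = 0.00069, limma), kept without any 1 array, and the change in HO15.19 was -0.38 ± 0.13 (adjusted p = 0.0898, limma). The difference of the 2 changes was 0.49 ± 0.18 (adjusted p = 0.352, limma), so a difference between the lines was not shown.

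Fis1 encodes an outer membrane adaptor of mitochondrial fission. Its level in TGR-1 was 8.71, 8.89 and 8.96 with DMSO and 9.12, 9.34 and 9.51 with rapamycin. In HO15.19 it was 9.57, 9.70 and 9.36 with DMSO and 10.23, 9.98 and 10.02 with rapamycin. The treated arrays stood above the untreated ones in both lines. The change was 0.53 ± 0.13 in HO15.19 (adjusted p = 0.0274, limma), a call lost without HO15.19 control replicate 1 or 3 or HO15.19 rapamycin replicate 1 (adjusted p up to 0.102, limma), under median centring or with the spread taken from that line alone, and 0.47 ± 0.13 in TGR-1 (adjusted p = 0.0578, limma). Over both treatments Fis1 was higher in HO15.19 by 0.72 ± 0.09 (adjusted p = 5.94e-06, limma). Mtfr1, a regulator of fission, had a change of -0.40 ± 0.12 in TGR-1, whose table lists it, and of -0.27 ± 0.12 in HO15.19 (adjusted p = 0.219, limma).

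Dhodh, Gpd2 and Sqor each feed electrons to ubiquinone by a route of their own. Dhodh, the inner membrane dehydrogenase of pyrimidine synthesis, read 8.85, 8.70 and 8.50 in TGR-1 with DMSO and 8.14, 8.20 and 7.94 with rapamycin. In HO15.19 it read 8.04, 7.83 and 7.74 with DMSO and 7.27, 7.74 and 7.45 with rapamycin. Treated and untreated arrays did not overlap in TGR-1, and in HO15.19 the highest treated array lay just under the lowest untreated one. The fall in TGR-1 was 0.59 ± 0.14 (adjusted p = 0.0228, limma), lost without any of 5 TGR-1 arrays (all but control replicate 3; adjusted p up to 0.121, limma), and the change in HO15.19 was -0.38 ± 0.14 (adjusted p = 0.130, limma). Gpd2, the glycerol phosphate dehydrogenase that passes cytosolic electrons to the chain, was called lower in HO15.19, whose table lists it (-0.46 ± 0.12), and had a change of -0.18 ± 0.12 in TGR-1 (adjusted p = 0.504, limma). Its HO15.19 call was lost on leaving out HO15.19 control replicate 1 or 3, HO15.19 rapamycin replicate 1 or 3 or TGR-1 rapamycin replicate 2 (adjusted p up to 0.169, limma), under median centring and with the spread taken from that line alone. Sqor, the sulfide quinone oxidoreductase, was the sole member listed for HO15.19 with opposite signs in the lines, at 0.39 ± 0.16 in HO15.19 and -0.17 ± 0.16 in TGR-1 (adjusted p = 0.669, limma).

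Of the genes of complexes I, III and IV, Ndufa7 was called with rapamycin in TGR-1, and Ndufb9 and Cox6a2 in HO15.19. In complex I, the entry point for electrons from NADH, Ndufb9 read 12.58, 12.62 and 12.76 in TGR-1 with DMSO and 12.43, 12.53 and 12.45 with rapamycin. In HO15.19 it read 12.88, 12.89 and 12.90 with DMSO and 12.26, 12.43 and 12.47 with rapamycin. The treated arrays lay below the untreated ones in both lines, by 0.50 ± 0.11 in HO15.19, whose table lists Ndufb9, and by 0.18 ± 0.11 in TGR-1 (adjusted p = 0.397, limma). The HO15.19 call was lost under median centring and with the spread taken from that line alone. Ndufa12, Ndufa13 and Ndufb6, also listed for HO15.19, had changes of -0.27 to -0.40 there and of -0.02 to -0.22 in TGR-1, with no call in either line. Ndufa1 and Ndufa7, listed for TGR-1, had positive values. Ndufa7 read 6.64, 6.76 and 6.68 in TGR-1 with DMSO and 7.03, 7.14 and 7.31 with rapamycin, a rise of 0.46 ± 0.12, beside a change of 0.33 ± 0.12 in HO15.19 (adjusted p = 0.123, limma). The rise was 0.29 on the authors' normalized values, and its call was lost on leaving out any of 5 TGR-1 arrays (all but rapamycin replicate 1; adjusted p up to 0.139, limma). The change of Ndufa1 in TGR-1 was 0.42 ± 0.14, and in HO15.19 it was 0.15 ± 0.14 (adjusted p = 0.638, limma).

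In complex III, Uqcrb and Uqcrc1, subunits of the complex, and Bcs1l, the translocase that inserts its iron-sulphur protein, all had negative values in both lines and none was called. The changes were -0.10 ± 0.13, -0.20 ± 0.12 and -0.40 ± 0.13 in TGR-1 and -0.27 ± 0.13, -0.28 ± 0.12 and -0.43 ± 0.13 in HO15.19. Bcs1l alone stood in both tables (adjusted p = 0.111 in TGR-1 and 0.0711 in HO15.19, limma).

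Complex IV, which passes electrons to oxygen, held 1 member called with rapamycin, Cox6a2. Cox6a2, the form of subunit 6a known from heart and skeletal muscle, read 6.31, 6.50 and 6.50 in HO15.19 with DMSO and 5.14, 4.96 and 5.68 with rapamycin. In TGR-1 it read 5.27, 5.35 and 5.32 with DMSO and 4.92, 4.89 and 4.69 with rapamycin, where it was detected on none of 3 arrays. Treated HO15.19 arrays thus fell to about the level of untreated TGR-1 arrays. The fall in HO15.19, whose table lists it, was 1.18 ± 0.15, and 0.53 on the authors' normalized values, called in both. In TGR-1 the DMSO level was at least 1.27-fold above the limit of detection with rapamycin (measured change -0.48 ± 0.15, adjusted p = 0.0898, limma). Cox7a2l, a factor that joins complexes III and IV, had changes of 0.40 ± 0.12 in TGR-1 and 0.38 ± 0.12 in HO15.19 (adjusted p = 0.0816 and 0.0893, limma), and Surf1, an assembly factor of complex IV, of 0.46 ± 0.14 in TGR-1, whose table lists it, and 0.19 ± 0.14 in HO15.19 (adjusted p = 0.533, limma).

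The 4 subunits of the ATP synthase were Atp5f1b (the catalytic beta subunit), Atp5f1d (delta), Atp5mc1 (the c subunit of the membrane ring) and Atp5pf (coupling factor 6). Atp5f1b, Atp5mc1 and Atp5pf, listed for HO15.19, had changes there of -0.36 ± 0.10, -0.36 ± 0.10 and -0.28 ± 0.11, and that of Atp5mc1 was called, a call that was lost whichever of the 12 arrays was left out. Their changes in TGR-1 were -0.19, -0.17 and -0.12, and none was called. Atp5f1d, listed for TGR-1, had a change of -0.29 ± 0.10 there and of 0.09 ± 0.10 in HO15.19 (adjusted p = 0.693, limma). Hadhb, the beta subunit of the trifunctional protein of fatty acid oxidation, had changes of -0.29 ± 0.11 in TGR-1 and -0.32 ± 0.11 in HO15.19 (adjusted p = 0.159 and 0.109, limma).

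Of the genes that express the mitochondrial genome, Polrmt, the mitochondrial RNA polymerase, had changes of -0.51 ± 0.15 in TGR-1 and -0.42 ± 0.15 in HO15.19 (adjusted p = 0.0578 and 0.113, limma). Tfam, listed for HO15.19, had a change of -0.31 ± 0.12 there and of -0.01 ± 0.12 in TGR-1 (adjusted p = 0.985, limma). Dap3, a subunit of the small mitochondrial ribosomal subunit, also listed for HO15.19, had changes of -0.36 ± 0.11 there and -0.0023 in TGR-1 (adjusted p = 0.995, limma). These 2 genes had the smallest changes in TGR-1 of all 43. In contrast, mrpl24 read 7.18, 7.01 and 6.92 in TGR-1 with DMSO and 6.39, 6.31 and 6.64 with rapamycin, a fall of 0.59 ± 0.14 in the line whose table lists it. The change was -0.39 without background correction and -0.36 on the authors' normalized values, and the call was lost on leaving out control or rapamycin replicate 1 or 2 of TGR-1 (adjusted p up to 0.106, limma). In HO15.19 it read 6.34, 6.52 and 6.78 with DMSO and 6.51, 6.78 and 6.54 with rapamycin, with overlapping groups (change 0.06 ± 0.14, adjusted p = 0.862, limma). Gfm1, the mitochondrial elongation factor G, had changes of -0.37 ± 0.12 in TGR-1, whose table lists it, and -0.13 ± 0.12 in HO15.19 (adjusted p = 0.592, limma).

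Among the import genes, Tomm70, a receptor on the outer membrane, had changes of -0.41 ± 0.15 in TGR-1 and -0.33 ± 0.15 in HO15.19 (adjusted p = 0.148 and 0.240, limma). Timm10, a chaperone of the intermembrane space, had changes of -0.31 ± 0.12 in HO15.19 and -0.13 ± 0.12 in TGR-1, and Timm17b, a channel subunit, of 0.28 ± 0.12 in TGR-1 and -0.07 ± 0.12 in HO15.19. Of the remaining genes, Prdx5, a peroxiredoxin, had changes of 0.33 ± 0.11 in TGR-1 and 0.32 ± 0.11 in HO15.19 and Acaa1a of 0.43 ± 0.12 and 0.33 ± 0.12, and neither was called in either line. Aifm1, a flavoprotein of the intermembrane space also known from cell death, had changes of -0.50 ± 0.18 in TGR-1 and -0.28 ± 0.18 in HO15.19. For RGD1561141, listed as similar to the carrier Aralar, the TGR-1 value was -0.28 ± 0.11 and the HO15.19 value -0.37 ± 0.11. Emc8 was called lower in HO15.19, whose table lists it (-0.47 ± 0.12), and had a change of -0.07 ± 0.12 in TGR-1; the HO15.19 call was lost on leaving out any of 5 HO15.19 arrays (all but rapamycin replicate 2; adjusted p up to 0.102, limma), under median centring and with the spread taken from that line alone.

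**Figure D3:**
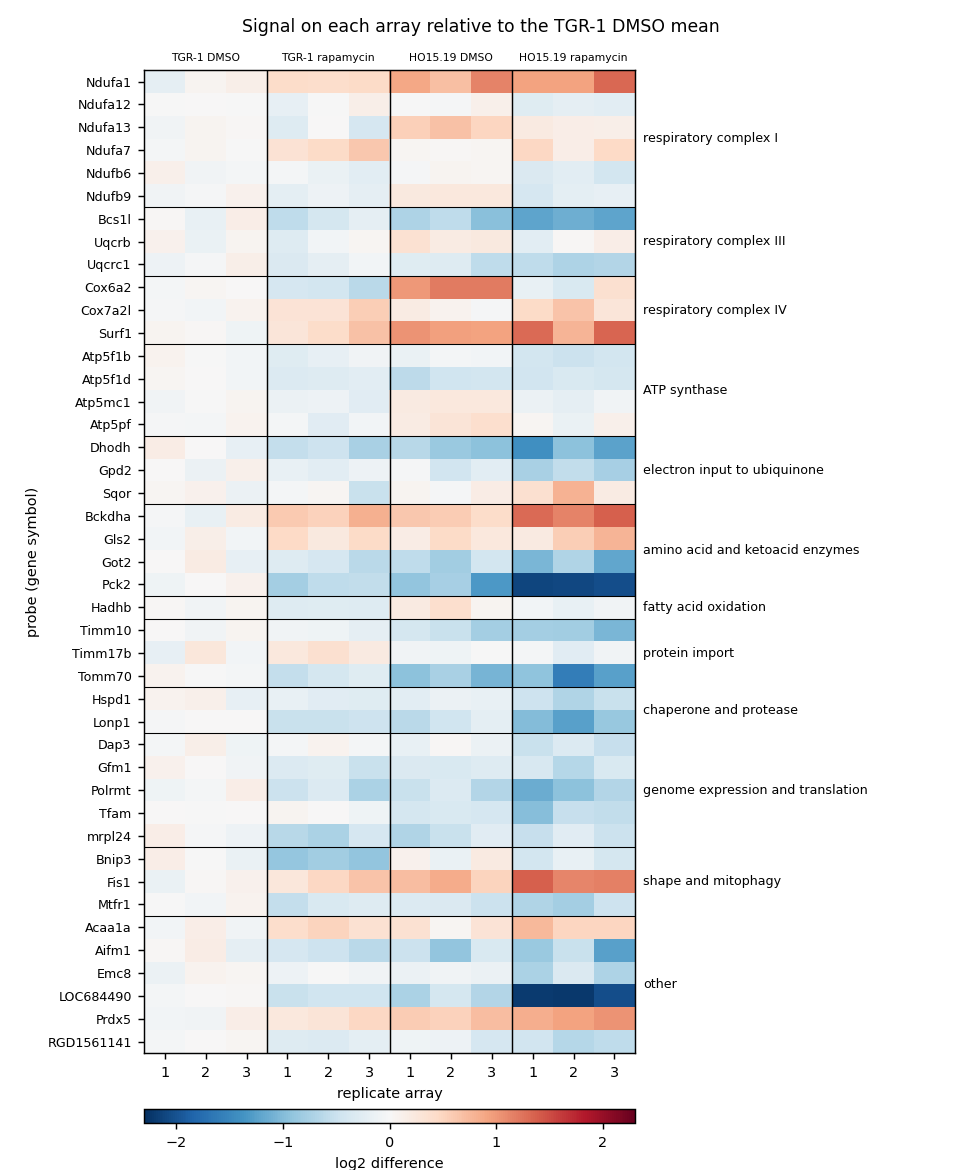
Difference of each array from the TGR-1 DMSO mean (colour, log2) for the 43 probes (rows, grouped by role) on the 12 arrays (columns, 3 replicates a group). The darkest blue cells are Pck2 and LOC684490 in HO15.19 with rapamycin, and red cells on the HO15.19 side are led by Ndufa1, Surf1, Bckdha, Fis1 and Cox6a2.

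The comparison of the lines, averaged over both treatments, does not use the contrasts that chose the probes. On this measure 26 of 43 passed (60.5%), 9 higher and 17 lower in HO15.19, against 40.2% of all probes tested (19.5% higher, 20.7% lower) and 64.6% of the other named probes. The share was thus no larger than among other genes of the authors' tables. Lower calls made up 39.5% of the 43, against 33.5% of the other named probes, and the median was -0.17 (-0.33 under median centring), beside -0.01 over all probes. Values with DMSO alone and with rapamycin alone gave 22 calls each (51.2%), against 55.6% and 56.4% of the other named probes.

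Of the 3 import genes, Tomm70 and Timm10 were lower in HO15.19. Tomm70 ran from 9.81 to 10.43 (median 10.19) on the 6 TGR-1 arrays and from 8.76 to 9.62 (median 9.34) on the 6 HO15.19 arrays, and Timm10 from 10.39 to 10.66 (median 10.52) and from 9.54 to 10.19 (median 9.81). The lines did not overlap for either gene. HO15.19 was lower by 0.88 ± 0.11 for Tomm70 (1.84-fold, adjusted p = 2.49e-06, limma) and by 0.66 ± 0.09 for Timm10 (1.58-fold, adjusted p = 6.89e-06, limma), and Timm17b differed by -0.24 ± 0.09 without a call.

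Of the 5 genes of genome expression and translation, 3 were called lower in HO15.19 and none higher, beside 33.5% lower among the other named probes. Tfam ran from 8.92 to 9.08 (median 9.03) in TGR-1 and from 8.05 to 8.68 (median 8.55) in HO15.19, with no overlap, and was lower by 0.53 ± 0.09 (adjusted p = 5.79e-05, limma). Polrmt was lower by 0.45 ± 0.10 (adjusted p = 0.00147, limma; 0.28 on the authors' normalized values, still called) and Dap3 by 0.27 ± 0.08 (adjusted p = 0.010, limma); the call for Dap3 was lost without any of 6 single arrays and without background correction, where its difference was under 1.2-fold.

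The respiratory chain was split. In complex III, Bcs1l ran from 7.97 to 8.70 (median 8.35) in TGR-1 and from 7.33 to 7.97 (median 7.50) in HO15.19, lower by 0.77 ± 0.09 (adjusted p = 2.88e-06, limma), and Uqcrc1 was lower by 0.42 ± 0.09 (adjusted p = 0.000615, limma). In complex IV, Surf1 ran from 7.63 to 8.39 (median 7.89) in TGR-1 and from 8.51 to 9.07 (median 8.70) in HO15.19, higher by 0.82 ± 0.10 (1.77-fold, adjusted p = 3.18e-06, limma). In complex I, Ndufa1, a small membrane subunit, ran from 10.18 to 10.83 (median 10.66) in TGR-1 and from 11.09 to 11.72 (median 11.31) in HO15.19, higher by 0.78 ± 0.10 (adjusted p = 6.43e-06, limma). Surf1 and Ndufa1 did not overlap between the lines. Ndufa13 was higher by 0.48 ± 0.08 (adjusted p = 0.000134, limma), a difference of 0.18 without a call when arrays were centred on the median in place of quantiles. Cox6a2 was higher by 0.78 ± 0.11 (adjusted p = 1.15e-05, limma), 0.34 on the authors' normalized values, with the treated TGR-1 arrays below detection, while the other 4 subunits of complex I were not called.

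The ATP synthase gave 1 call, Atp5f1d, lower in HO15.19 by 0.31 ± 0.07 (adjusted p = 0.00188, limma), and by 0.47 under median centring. Of the electron donors, Dhodh was lower by 0.71 ± 0.10 (adjusted p = 1.29e-05, limma) and Gpd2 by 0.38 ± 0.09 (adjusted p = 0.00168, limma), and Sqor was higher by 0.34 ± 0.11 (adjusted p = 0.0194, limma), a call lost without any of 6 single arrays, with no filter on dim probes and under median centring (0.18). LOC684490 was lower by 1.14 ± 0.08 (2.20-fold, adjusted p = 4.17e-09, limma), Lonp1 by 0.49 ± 0.09, Aifm1 by 0.48 ± 0.12, Emc8 by 0.32 ± 0.08 and Mtfr1 by 0.32 ± 0.08, all called; the call for Mtfr1 was lost without background correction and on the authors' normalized values (-0.21). Prdx5 ran from 10.66 to 11.21 in TGR-1 and from 11.28 to 11.77 in HO15.19, higher by 0.60 ± 0.08 (adjusted p = 8.75e-06, limma), with no overlap. Bnip3 was higher by 0.30 ± 0.09 (adjusted p = 0.0102, limma), lost without TGR-1 control replicate 3, HO15.19 control replicate 3 or HO15.19 rapamycin replicate 2 and under median centring (0.18).

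**Figure D4:**
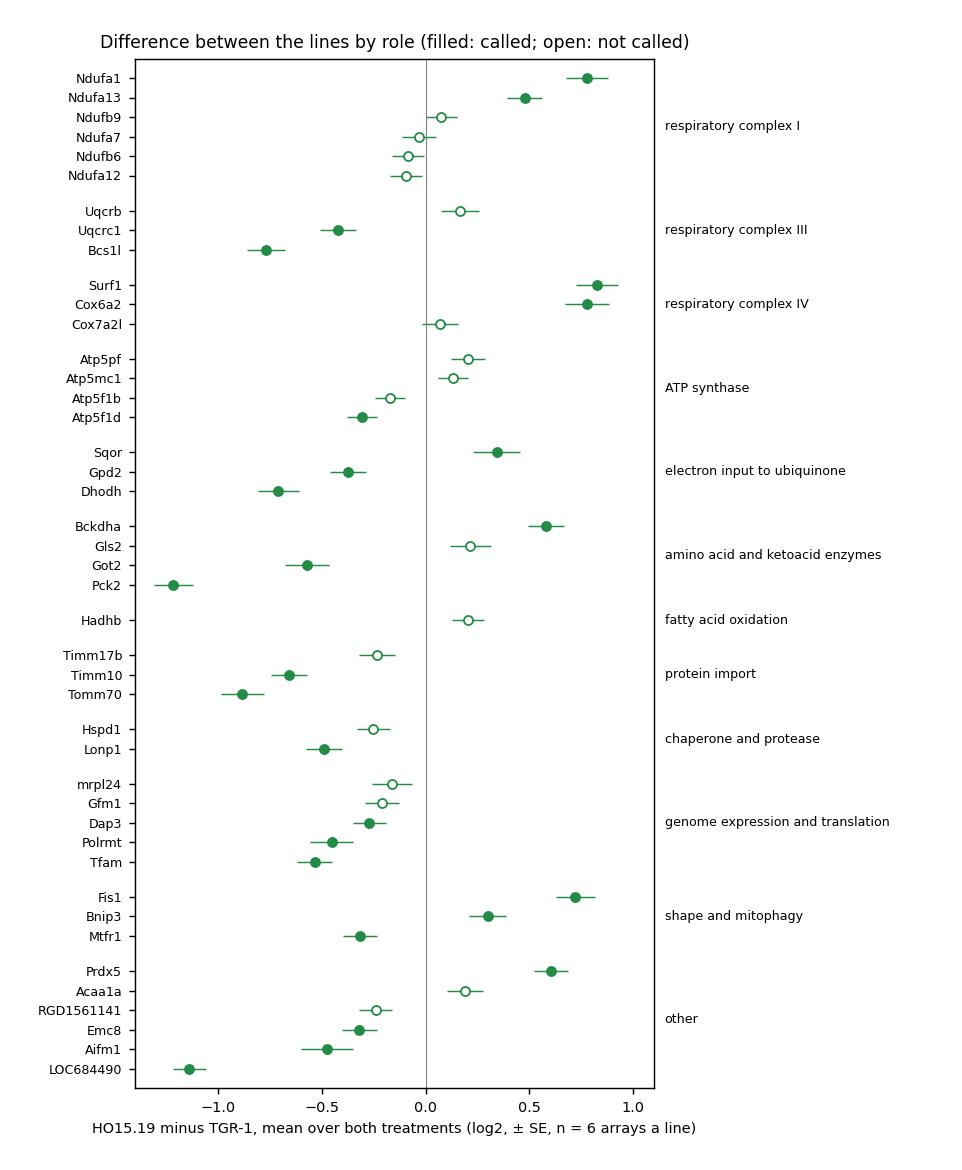
HO15.19 minus TGR-1 averaged over both treatments (x axis, log2, with the SE of the limma fit, 6 arrays a line) for the 43 probes (y axis), grouped by role; filled points were called. All members of protein import, genome expression and the chaperone and protease pair lie left of 0, while complexes I and IV lie mostly near or right of 0.

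Genes with an E-box window did not share a direction between the lines: Surf1 and Bnip3 were higher in HO15.19, Timm10 was lower, and Atp5mc1, Ndufa7 and mrpl24 were not called. The call for Bnip3 was lost without any of 3 single arrays and under median centring. Both genes with the NRF1 core, Aifm1 and Uqcrc1, were lower. Of the 5 genes with the ETS motif, Tfam, Timm10 and Tomm70 were lower and Fis1 and Surf1 higher. Among all 43 members 60.5% were called between the lines, and among the other named probes 64.6%.

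Other genes of the mitochondrial pathway lists that the rule left out numbered 21 among the named probes. Rapamycin called 2 of them in TGR-1, both lower, and 7 in HO15.19, 3 higher and 4 lower. Among the other named probes as a whole 23.2% were called in TGR-1 and 30.4% in HO15.19, beside 3.96% and 5.14% of all probes tested. As the 21 too were drawn from the authors' tables, the counts are a description. Hspa9, the matrix chaperone of the import motor, was called lower in both lines, at -0.49 in TGR-1 and -0.59 in HO15.19. Pdk1, which inhibits pyruvate dehydrogenase, was called lower in TGR-1 (-0.61; -0.37 in HO15.19), and Bcat1, a cytosolic aminotransferase upstream of Bckdha, in HO15.19 (-0.55; -0.48 in TGR-1), opposite in sign to Bckdha. The 3 called higher with rapamycin in HO15.19 were Oma1 (0.55), Pink1 (0.49) and Pdp1 (0.47). Between the lines 13 of the 21 were called, 10 lower and 3 higher in HO15.19, a share near the 64.6% of the other named probes. Polg, the mitochondrial DNA polymerase, was lower by 0.68. Pink1 was higher by 1.25 and was not detected on any TGR-1 array.

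The Myc probe itself rose with rapamycin in TGR-1, by 0.58 ± 0.12 (adjusted p = 0.00785, limma), and had a change of 0.25 ± 0.12 in HO15.19 (adjusted p = 0.258, limma), and over both treatments it was lower in HO15.19 by 1.36 ± 0.08 (adjusted p = 5.77e-10, limma). Its part in the values of the mitochondrial genes was not tested.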

How the data were processed

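Total RNA of TGR-1 and HO15.19 fibroblasts, with DMSO or 50 nM rapamycin for 24 hr, was hybridised to 12 Illumina RatRef-12 arrays, 3 independent biological replicates a group as the methods state. The signal intensity per probe deposited by the authors came from BeadStudio before normalization between arrays, and no source used here says if background had been subtracted. Beside each signal stands a BeadStudio detection p-value, also deposited. A further table deposited by the authors holds intensity after quantile normalization on a linear scale. Comparison tables deposited by the authors (Partek 6.3) hold 984 TGR-1 and 1143 HO15.19 probes with fold changes, p-values and group means; only their probe names and membership were used.

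Here the raw signals were processed with neqc in limma 3.58.1 (R 4.3.3; background from detection p-values, offset 16, quantiles, log2). Tests covered the 10852 probes (48.2%) detected at p under 0.05 on 3 or more arrays. Group means were fitted over all 12 arrays with lmFit and eBayes (8 residual and 8.72 prior degrees of freedom; two-sided). The number of arrays limits the precision. The threshold follows the methods. The fits were tested on simulated data. Probes were named through Entrez identifiers (40 of the 43) or as listed (3).

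The members, gene lists, tests and alternatives were chosen with earlier results of these data known. Every member was counted. Values were given for Bckdha, the 8 largest rapamycin changes in each line, genes called in both lines, the 8 largest called line differences, any gene called for the difference of the changes, and all of any role group with at most 6 genes. Alternatives covered the filter, background, normalization, variance model, array weights, test, threshold, a replicate block and each array left out. Motif searches used RefSeq promoters (GRCr8). No file names a chip, so no chip block was fitted.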

Additional observations from a re-analysis of the deposited data

Results flagged for a closer look

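The rapamycin change of LOC684490 differed between the lines, at -1.08 log2 units in HO15.19 relative to TGR-1 (adjusted p = 0.0130, limma), and it was the sole 1 of the 43 probes for which the test of the difference passed. The signs agreed in both lines and the size did not. The comparison is built from those that chose the probes. Groups of 3 arrays were not tested for single arrays far from the rest.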

How the results depend on the processing

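Medians of the 43 probes stayed negative for rapamycin in both lines and for the line difference under all alternatives tried, leaving out arrays included, and no called gene changed sign. Counts moved more. Without background correction 16 members were called in TGR-1 and 21 in HO15.19 (8 and 10 as reported), with 10 members listed for TGR-1 passing in HO15.19 and 11 listed for HO15.19 passing in TGR-1 (5 and 6 as reported). On the authors' normalized values these were 17, 21, 9 and 12. Array weights gave 17 in TGR-1 and 11 of those listed for HO15.19, and a mean-variance trend 18 in HO15.19. Median centring gave 5 in HO15.19 and 0 for the difference of the changes. In the limma fit as reported, 10 of 43 had an unadjusted p under 0.05 for this difference, beside 1057 of all 10852 probes tested. Spread from each line's own arrays gave 4 in HO15.19 and 3 of those listed for TGR-1. The methods' t-test with Benjamini-Hochberg adjustment gave 2 in TGR-1, 0 in HO15.19, 2 of those listed for HO15.19 and 0 of those listed for TGR-1. In the limma fit as reported, 34 of 43 members had an unadjusted p under 0.05 in HO15.19, beside 2018 of all 10852 probes tested. As 33 of the 43 were listed from this comparison, the 34 describes how they were chosen. Dropping the Benjamini-Hochberg condition gave 19, 20, 9 and 13, and 3 for the difference of the changes. Where a count of members in this paragraph moved, the calls over all probes moved the same way. A moved count is thus not by itself a trait of the members. As reported, 430 probes were called in TGR-1 and 558 in HO15.19. These were 612 and 787 without background correction and 864 and 986 without the Benjamini-Hochberg condition. Median centring gave 346 in HO15.19, spread from each line's own arrays 258, and the methods' t-test 58 in TGR-1 and 13 in HO15.19. The causes were not tested.

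Leaving out 1 array gave 3 to 11 calls in TGR-1, 6 to 9 in HO15.19, 0 to 1 for the difference, 3 to 8 of those listed for HO15.19, 4 to 5 of those listed for TGR-1 and 23 to 28 between the lines. Any 1 TGR-1 array left out brought the TGR-1 count to 3 to 5, and HO15.19 control replicate 1 or rapamycin replicate 1 left out brought the HO15.19 count to 6. The calls over all probes fell as well, to 198 to 320 in TGR-1 and to 314 and 372 in HO15.19. Between the lines the calls over all probes did not always follow the members. Without HO15.19 rapamycin replicate 1 they were 4226, with 28 members, and without HO15.19 control replicate 3 they were 4367, with 23 members. As reported they were 4361, with 26 members. Of 18 rapamycin calls 8 held without any 1 array, and of 26 line calls 23. Deviations of arrays with the same replicate number correlated at -0.23 to 0.278 (18 pairs, 6 over 0.1). Those of arrays with different numbers correlated at -0.385 to 0.355 (36 pairs, 9 over 0.1). With 3 arrays a group this cannot settle if the numbers pair the arrays. With the number as a replicate block the counts were 8, 9, 26 and 1, and 5 and 6 in the other line, and Atp5mc1 in HO15.19 was the sole call lost. The calls over all probes in HO15.19 rose with this block, from 558 to 593. Dim probes near the detection limit, Cox6a2 and Bckdha among them, kept their direction but not their size without background correction.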
